A study of Mus musculus with 34 samples.

Results

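Cells remodel the matrix around them with secreted and membrane-bound proteases, and hold these in check with dedicated inhibitors. The genes described here were the rows of the count table whose symbol names a matrix metalloproteinase (Mmp), an ADAM or ADAMTS metalloproteinase, a tissue inhibitor of metalloproteinases (Timp) or a serpin, together with Plau, Plat, Plaur, St14, Spint1 and Spint2. The rule rests on names and uses no measured value, but it was chosen with earlier results of these data known. The rule was met by 61 of the 14107 genes in the table, while the GENCODE annotation lists 145 protein-coding genes that would meet it. The other 84 were not rows of the table and were not analysed here. They include Mmp3, Mmp7, Mmp9, Timp4, Serping1 and Serpina3n. Since every gene in the table had a summed count of at least 360, the 61 genes are those that passed a filter on low counts and not the whole families. They comprised 6 secreted and 4 membrane MMPs, 3 TIMPs, 11 ADAMs, 11 ADAMTS genes, 3 genes of plasminogen activation, 3 genes of the matriptase system, 15 clade B serpins and 5 other serpins.

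RNA was sequenced from NaJa-D, NaJa-F and NaJa-G, 3 mouse colorectal cancer lines. The lines were grown from peritoneal lavages of C57BL/6N mice that had received colon organoids carrying VillinCreERT2, BrafV600E, Trp53R172H and a deletion of Apc. Every group shares these alleles, because all 3 lines go back to 1 organoid donor line and Cre had been activated with 4-hydroxytamoxifen. Cells received 0.5 µM encorafenib, which blocks the mutated BRAF kinase, or its solvent DMSO, and RNA was taken on day 1 or day 5. The agent was added on day 0 and, for day 5, again on days 2 and 4. The 3 lines, 2 treatments and 2 days make 12 groups and 34 libraries. Each group holds 3 libraries except those of NaJa-F with encorafenib and of NaJa-G with DMSO on day 5, which hold 2. Each line is a single isolate from 1 recipient mouse, so that a difference between lines is a difference between these isolates. Nothing says that the replicates are separate cultures, and the p-values therefore measure the spread between these libraries.

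MMPs are zinc endopeptidases that cut collagens, laminins and other matrix proteins, and TIMPs block their active site. ADAMs are membrane-anchored metalloproteinases that shed the outer parts of receptors, growth factors and adhesion molecules, whereas ADAMTS enzymes are secreted and cut proteoglycans or process procollagen. The plasminogen activators uPA (Plau) and tPA (Plat) turn plasminogen into plasmin, a broad protease, with uPA bound to its receptor (Plaur), and serpins such as protease nexin (Serpine2) inhibit both. Matriptase (St14) is an epithelial membrane serine protease, and the Kunitz inhibitors HAI-1 (Spint1) and HAI-2 (Spint2) restrain it. Most serpins trap their protease in a covalent complex. Those of clade B lack a classical signal peptide, and many of them stay inside the cell, where they protect it from leaked or delivered proteases such as cathepsins and granzymes. In intestinal tumours such enzymes are studied for their part in invasion and in the release of growth factors.

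The libraries held 46007050 to 80121299 counts. Levels are CPM, the count as a share of the TMM-scaled library total, and changes are log2 fold changes from limma-voom with their standard error (SE) and a p-value adjusted over all 14107 genes (Benjamini-Hochberg). A gene is called where that adjusted p is below 0.01. The cell line field of 1 library, the third NaJa-D DMSO replicate of day 1 by its title, reads NaJa-G. Its log2 CPM correlated at 0.9946 and 0.9949 with the remaining libraries of its titled group and, at the highest, at 0.92 with the NaJa-G ones of DMSO day 1, and it was kept under its title. Without it 37 instead of 38 of the 61 genes were called with encorafenib in NaJa-D on day 1, and 46 instead of 49 between NaJa-G and NaJa-D in DMSO. All 8 epithelial markers were in the table, and their summed level ran from 2574 CPM in NaJa-G DMSO day 5 to 9099 CPM in NaJa-D encorafenib day 1. Of 7 macrophage and other leukocyte markers 4, among them Ptprc, were not rows of the table, and the other 3 had summed levels of 23.0 to 47.6 CPM over the libraries.

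With encorafenib many more of these genes were called higher than lower. On day 1 in NaJa-D, 27 of the 61 genes were called higher, against 23.7% of all genes, and 11 lower, against 21.2%. With library size alone as the scaling these counts were 30 and 9. On day 5 in NaJa-D, 29 were higher (all genes, 18.3%) and 3 lower (14.7%). NaJa-F had 28 higher (17.5%) and 8 lower (12%) on day 1. On day 5 it had 25 higher (9.7%) and 4 lower (8.5%). NaJa-G had 35 higher (35.3%) and 13 lower (28.7%) on day 1, and 43 higher (28.5%) and 5 lower (24.7%) on day 5. The share of higher calls was thus above that of all genes in each of the 6 comparisons. The share of lower calls was below that of all genes in NaJa-D on day 5 and in NaJa-G on both days. In NaJa-D on day 1 and in NaJa-F on both days it was near that of all genes. In these bulk libraries fewer cells with a gene and less RNA per cell cannot be told apart. Of 4 mesothelial markers 3 were in the table (Wt1 was not), chiefly Msln, and their summed level moved with the drug. It was 497 to 724 CPM in the DMSO and 1328 to 1744 CPM in the encorafenib libraries of NaJa-G, and was also above DMSO in NaJa-D and NaJa-F on both days. The sum of the epithelial markers was above DMSO on day 1 in every line (3281 to 4096 CPM in DMSO and 5059.6 to 5214 CPM with encorafenib in NaJa-G). The sum of the fibroblast or mesenchymal markers, chiefly Vim in DMSO, was below DMSO in NaJa-D and NaJa-F on both days. It was 122 to 129.9 against 42.9 to 59.0 CPM in NaJa-D on day 1 and 309 to 333 against 143 to 155 CPM in NaJa-F on day 5. In NaJa-G it overlapped DMSO on day 1 and was below it on day 5 (2106 to 2405 against 1945 to 2037 CPM). The single mesenchymal markers did not all fall. Of the 6 in the table, 2 were called higher and 1 lower in NaJa-D on each day and in NaJa-F on day 1. NaJa-F on day 5 had 2 higher and 2 lower, and NaJa-G had 4 higher and 0 lower on each day. The part of these marker sums in the results was not tested.

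The changes were also large. Counting only called genes that changed by 1 or more on the log2 scale, NaJa-G had 31 of 61 on day 1 (all genes, 20.4%) and 37 of 61 on day 5 (16%). NaJa-D had 22 (7.82%) and 17 (5.51%). NaJa-F had 16 (4.9%) and 13 (4.1%). The median log2 fold change of the 61 genes ran from 0.19 in NaJa-F on day 5 to 1.35 in NaJa-G on day 5, and that of all genes was 0.00 and 0.01 in the same comparisons. Of the 61 genes 18 were called higher in all 6 comparisons, which 5.08% of all genes were. They are Adam8, Adamts1, Adamts5, Adamts15, Mmp15, Plau, Spint1 and 11 clade B serpins. None was called lower in all 6 (3.07% of all genes). Mmp17 and Adam1a, 2 of the 61, were called in none of the 6. Every gene of the table had at least 2 libraries above 1 CPM. Adamts9, Mmp19 and 5 clade B serpins (Serpinb1b and Serpinb9c, d, e and g) had fewer than 2 such DMSO libraries. Adamts8 and Adamts17 had fewer than 2 such encorafenib libraries. These 9 genes thus reach 2 such libraries only through the treatment in which they are high. The counts, medians, ranks and tests that hold them are a description only. Of the other 52 genes 14 were called higher in all 6 comparisons. Among these, Spint1, Adamts15 and Serpinb8 each rest on a NaJa-F call that was lost in most or all fits that left out 1 library (given below).

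**Figure D1:**
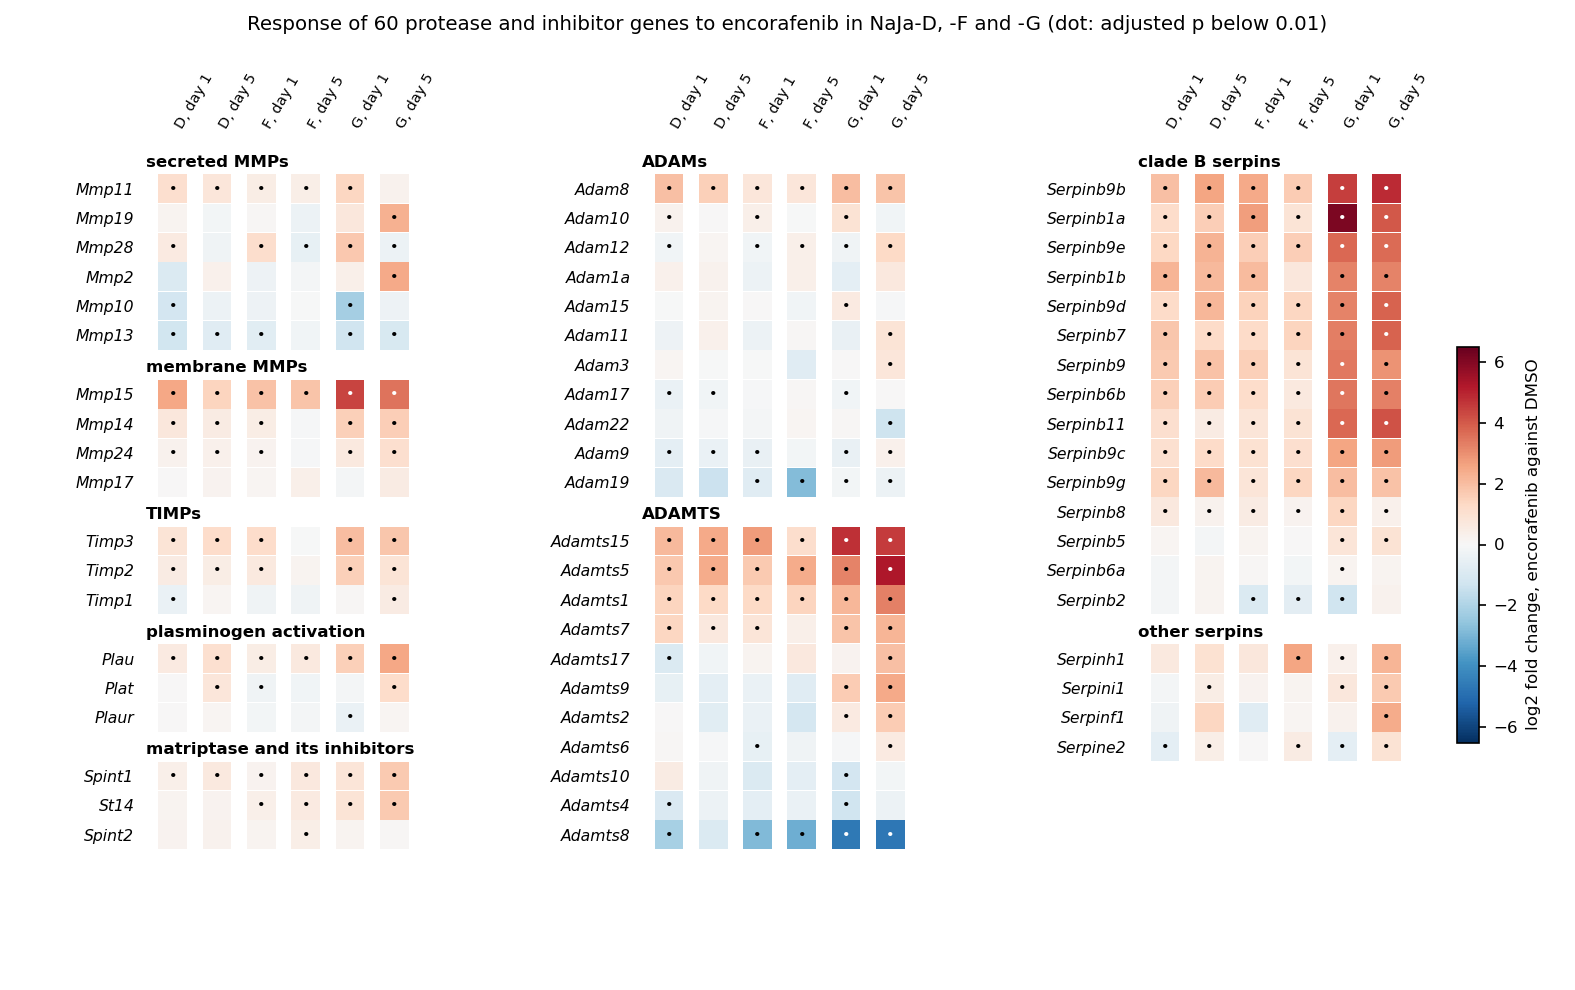
Each square is the log2 fold change of 1 gene (rows, 60 of the 61 genes, grouped by role) in 1 comparison of encorafenib with DMSO (columns, line and day), with red for higher, blue for lower and a dot for adjusted p below 0.01. Most clade B serpins, Mmp15, Adamts1, Adamts5 and Adamts15 are red across the row and deepest in NaJa-G, whereas Adamts8 is blue across the row.

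Among the membrane MMPs, Mmp15 (MT2-MMP, at chr8:95352268-95375080, GRCm38) rose most. On day 1 in NaJa-G it had 3.14, 2.09 and 2.18 CPM in the DMSO libraries and 49.9, 54.3 and 51.2 CPM in the encorafenib libraries, a log2 fold change of 4.40 ± 0.205 (adjusted p = 3.23e-17). The values of day 5 were 4.6 and 4.41 CPM in the DMSO libraries and 49.1, 55.4 and 51.9 CPM in the encorafenib libraries (3.53 ± 0.200, adjusted p = 6.45e-15). The treated NaJa-G libraries thus lay far above the DMSO ones. They were near untreated NaJa-D of day 1, where Mmp15 averaged 45.8 ± 8.04 CPM (SD, n = 3), but below untreated NaJa-D of day 5 (127, 120 and 103 CPM). In NaJa-D it rose to 264 ± 33.7 CPM (2.54 ± 0.114, adjusted p = 1.62e-16) on day 1 and by 1.46 ± 0.109 on day 5, from a DMSO level that was itself higher on day 5 (117 ± 12.4 CPM, n = 3). NaJa-F gave 1.91 ± 0.114 and 1.83 ± 0.125 on days 1 and 5. No DMSO library overlapped an encorafenib library of its line and day.

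Mmp14, the MT1-MMP that cuts collagen at the cell surface and activates pro-MMP2, rose in 5 of the 6 comparisons. Its NaJa-G values on day 5 were 103 and 113 CPM in the DMSO libraries and 328, 339 and 309.5 CPM in the encorafenib libraries (1.59 ± 0.0674, adjusted p = 1.02e-17). The change was 1.55 in NaJa-G on day 1, 0.50 in NaJa-F on day 1 and 0.74 and 0.54 in NaJa-D on days 1 and 5. It was not called in NaJa-F on day 5 (-0.07 ± 0.0676). Mmp24 (MT5-MMP) rose in the same 5 comparisons, by 0.23 to 1.08. Mmp17, the GPI-anchored MT4-MMP, stayed between 0.577 and 1.81 CPM as group means and was called in none of the 6 encorafenib comparisons.

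The secreted MMPs did not share a direction. Mmp13 (collagenase 3) was low throughout and fell in 5 of 6 comparisons. NaJa-G on day 1 had 4.0, 4.58 and 4.29 CPM in the DMSO libraries and 1.19, 2.62 and 1.52 CPM in the encorafenib libraries (-1.30 ± 0.199, adjusted p = 1.3e-06). NaJa-D on day 1 had 4.0, 4.69 and 4.71 CPM in the DMSO libraries and 2.45, 1.90 and 1.28 CPM in the encorafenib libraries (-1.26 ± 0.210, adjusted p = 1.11e-05). In both comparisons the highest treated library stayed below the lowest DMSO library, although the treated libraries were spread widely. Mmp13 in NaJa-F on day 5 was not called (-0.25 ± 0.183), and its NaJa-F day 1 call (-0.73) was lost without encorafenib replicate 1. Mmp10 (stromelysin 2) fell on day 1 in NaJa-G, from 4.89, 5.61 and 6.00 CPM in the DMSO libraries to 0.962, 1.16 and 1.58 CPM in the encorafenib libraries (-2.19 ± 0.145, adjusted p = 8.64e-14). It also fell in NaJa-D on day 1 (-1.21 ± 0.191) and was called in no other comparison. A share of 8.37% of the 50-base words of its transcripts also occurs in Mmp3, so the split of reads between both genes is uncertain.

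Mmp11 (stromelysin 3) rose in 5 of 6 comparisons, by 0.46 to 1.39, and was not called in NaJa-G on day 5 (0.27 ± 0.103). Mmp28 (epilysin) changed sign with time. NaJa-G on day 1 had 40.3, 35.5 and 33.8 CPM in the DMSO libraries and 124, 122 and 126 CPM in the encorafenib libraries (1.76 ± 0.101, adjusted p = 3.4e-15). NaJa-G on day 5 had 85.4 and 106 CPM in the DMSO libraries and 70.8, 79.3 and 70.8 CPM in the encorafenib libraries (-0.37 ± 0.109, adjusted p = 0.00398). The encorafenib libraries were thus above DMSO on day 1 and below it on day 5, and the DMSO level itself was higher on day 5 (1.38 ± 0.112 (adjusted p = 7.68e-11) against day 1). NaJa-F gave the same order, 1.14 on day 1 and -0.54 on day 5. Both day 5 calls were lost in 3 of 5 fits that left out 1 library, with values of -0.54 to -0.22 in NaJa-G and -0.71 to -0.41 in NaJa-F. Mmp2 (gelatinase A) and Mmp19 were called in NaJa-G on day 5 alone among the encorafenib comparisons, and at low counts. Mmp2 had 5 and 36 counts in the DMSO and 89, 84 and 80 in the encorafenib libraries (2.45 ± 0.414, adjusted p = 9.25e-06), and the DMSO libraries of day 1 had 78, 76 and 58.

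**Figure D2:**
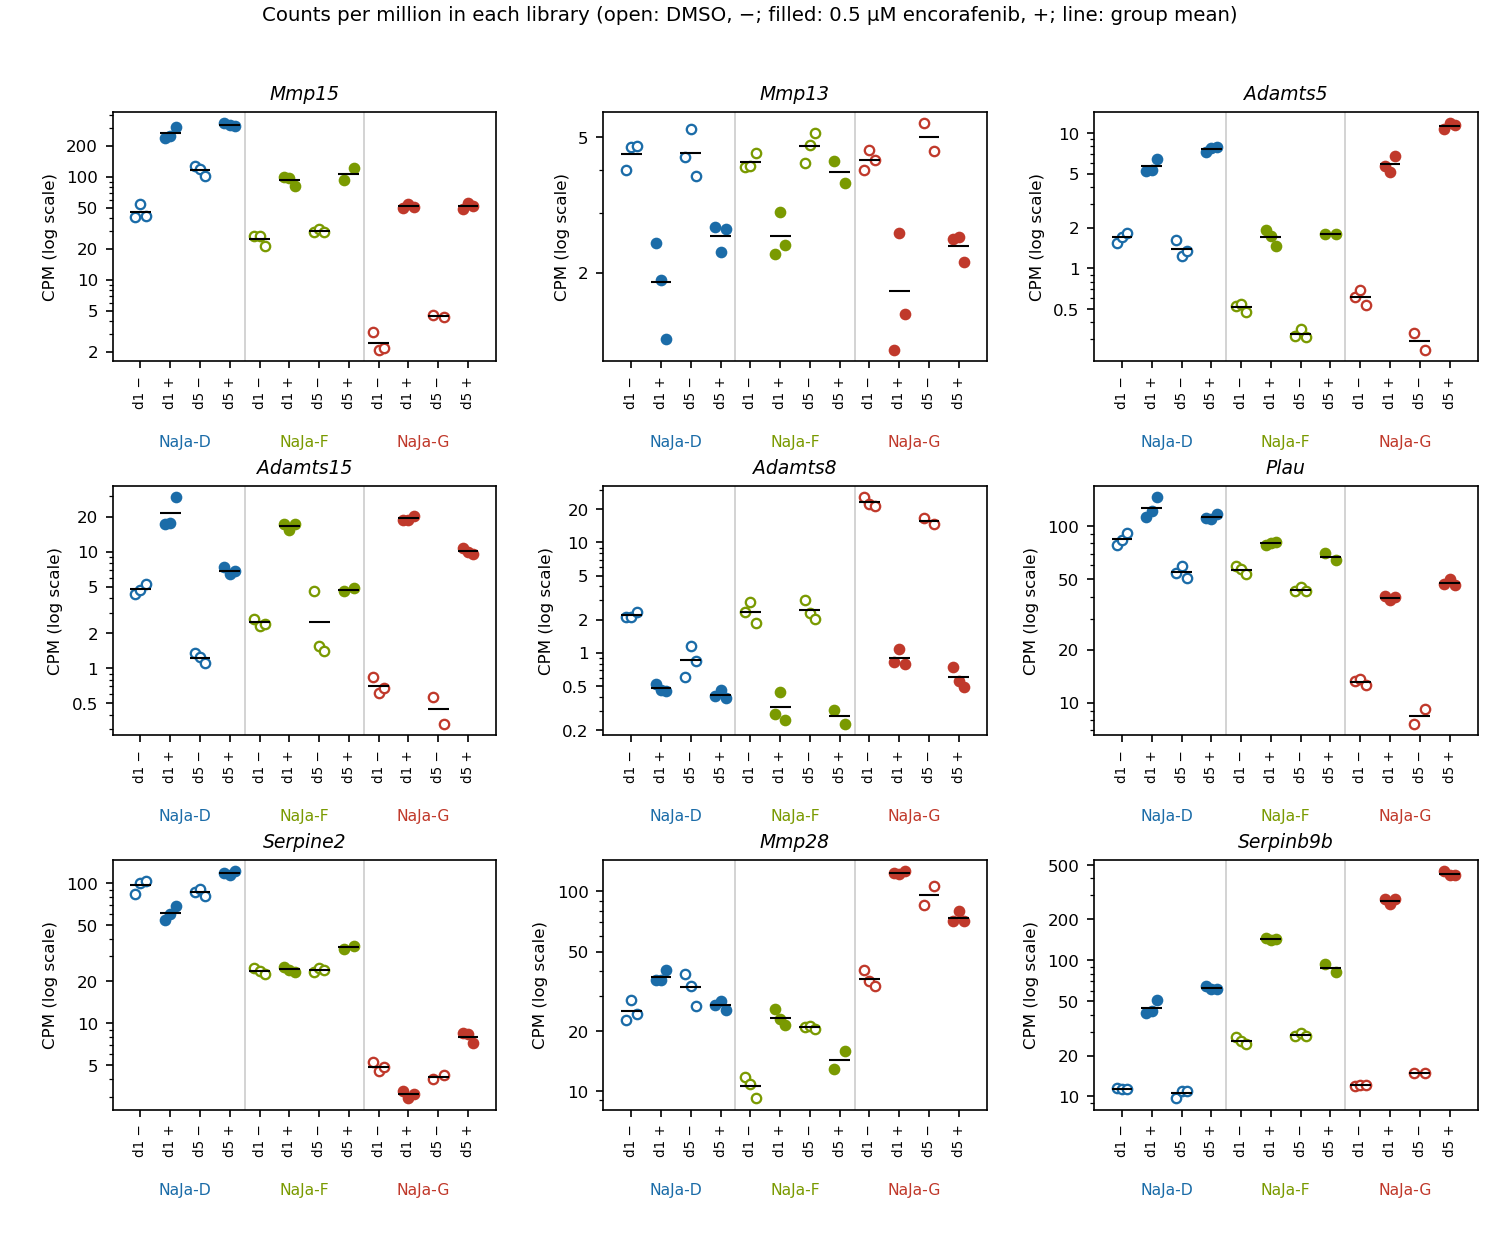
Each panel shows 1 gene, with a point for each library (CPM, log scale), open for DMSO and filled for 0.5 µM encorafenib, by line and day, and a line at the group mean. In NaJa-G, Mmp15, Adamts5, Adamts15, Plau and Serpinb9b lie higher with encorafenib on both days and Adamts8 lies lower, while Serpine2 and Mmp28 change the side on which the treated libraries lie between day 1 and day 5.

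Of the TIMPs, Timp2 was the most abundant of the 61 genes per kilobase of exon in each DMSO day 1 group, with 266, 266 and 326 CPM per kb in NaJa-D, -F and -G. In NaJa-G on day 1 Timp2 had 1386, 1238 and 1181 CPM in the DMSO libraries and 3782, 3492 and 3685 CPM in the encorafenib libraries (1.53 ± 0.0839, adjusted p = 1.3e-15). It was called higher in every comparison but NaJa-F on day 5 (0.19 ± 0.0892). Timp3, which binds the matrix and also inhibits several ADAMs, rose in the same 5 comparisons, by 0.88 to 1.98, with 157, 145 and 137 CPM in the DMSO libraries and 582, 564 and 580.0 CPM in the encorafenib libraries in NaJa-G on day 1. Timp3 overlaps exons of Syn3 on the opposite strand over 21.3% of its exon length, and whether strand was used in counting is not stated. Timp1 differed from both, with a called fall in NaJa-D on day 1 (-0.45 ± 0.0909) and a called rise in NaJa-G on day 5 (0.55 ± 0.0990).

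The ADAMTS genes included some of the largest rises and, in 5 of the 6 comparisons, the largest fall of the 61 genes. Adamts1, Adamts5 and Adamts15, which cut aggrecan or versican, were called higher in all 6 comparisons. Adamts5 in NaJa-G on day 5 had 0.334 and 0.249 CPM in the DMSO libraries and 10.6, 11.8 and 11.5 CPM in the encorafenib libraries (5.27 ± 0.250, adjusted p = 1.19e-16). Its changes in the other comparisons were 3.21 in NaJa-G on day 1, 1.73 and 2.43 in NaJa-D on days 1 and 5, and 1.69 and 2.42 for NaJa-F. Adamts1 had 16.8 and 13.8 CPM in the DMSO libraries and 139, 158 and 144 CPM in the encorafenib libraries in NaJa-G on day 5 (3.28 ± 0.0882, adjusted p = 5.08e-22). In NaJa-D it rose from 183 ± 12 to 504 ± 44.9 CPM (SD, n = 3 each) on day 1. The treated NaJa-G libraries of day 5 thus lay below these untreated NaJa-D libraries of day 1. They overlapped the NaJa-D DMSO libraries of day 5, which had 189, 166 and 153 CPM.

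Adamts15 and Adamts8 lie side by side on chromosome 9, at chr9:30899155-30922452 and chr9:30942562-30963838 (GRCm38), with 20109 bases between them, and moved in opposite directions. Adamts15 in NaJa-G on day 1 had 0.837, 0.616 and 0.682 CPM in the DMSO libraries and 18.8, 18.9 and 20.3 CPM in the encorafenib libraries (4.75 ± 0.358, adjusted p = 1.51e-12). Adamts8 in the same libraries had 25.6, 22.2 and 21.6 CPM with DMSO and 0.833, 1.1 and 0.789 CPM with encorafenib (-4.65 ± 0.194, adjusted p = 2.49e-18). By log2 fold change Adamts15 ranked 20 from the top and Adamts8 16 from the bottom of the 14107 genes there. Adamts8 had 15 DMSO libraries but only 1 encorafenib library above 1 CPM, so that its rank and tests are a description only. On day 5 in NaJa-G the values were 4.53 ± 0.527 for Adamts15 and -4.71 ± 0.223 for Adamts8. Adamts8 was called lower in 5 of 6 comparisons and gave -0.95 ± 0.317 (adjusted p = 0.0164) in NaJa-D on day 5, where the DMSO level was only 0.870 ± 0.282 CPM (n = 3). Adamts15 changed least in NaJa-F on day 5 (1.12), where 1 of the 3 DMSO libraries was near the treated ones, with 4.58, 1.57 and 1.41 CPM in DMSO and 4.6 and 4.89 CPM with encorafenib. This call was lost with edgeR, with DESeq2 and in 4 of 5 fits that left out 1 library (0.80 to 1.66). Beyond Adamts8 the next genes of the table are Zbtb44 and St14. Zbtb44 had -0.52 in NaJa-G on day 1 and was called lower in 3 of 6 comparisons.

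Adamts7 rose in 5 of 6 comparisons, by 0.69 to 2.23. Adamts9 and Adamts2, the latter a procollagen N-proteinase, rose in NaJa-G alone. Adamts9 gave 1.66 ± 0.214 and 2.45 ± 0.255 on days 1 and 5 in NaJa-G, reaching 2.07 ± 0.318 CPM (n = 3), and Adamts2 gave 0.61 ± 0.102 and 1.66 ± 0.102. For Adamts9 the response in NaJa-G exceeded that in NaJa-D by 2.18 ± 0.400 on day 1 and by 3.08 ± 0.413 on day 5. Adamts9 had 0 DMSO libraries above 1 CPM and passed that level only in treated NaJa-G libraries, so that these differences are a description only. Adamts4, another aggrecanase, was lower on day 1 in NaJa-D (-1.01 ± 0.308) and NaJa-G (-1.30 ± 0.168) and was not called elsewhere. Its NaJa-D call was lost in 5 of 6 fits that left out 1 library. Of the other members, Adamts10 was lower in NaJa-G on day 1 (-1.17). Adamts6 was lower in NaJa-F on day 1 (-0.53) and higher in NaJa-G on day 5 (0.57). Adamts17 was lower in NaJa-D on day 1 (-0.94) and higher in NaJa-G on day 5 (1.95). The latter stands for 13 and 5 counts in the DMSO and 28, 34 and 37 in the encorafenib libraries, all below 1 CPM. Adamts17 passed 1 CPM in only 1 encorafenib library, so that its changes are a description only.

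Among the ADAMs only Adam8 rose in all 6 comparisons, by 0.80 in NaJa-F on day 1 up to 2.00 in NaJa-G on day 1. In NaJa-D on day 1 it had 13.3, 16.2 and 15.1 CPM in the DMSO libraries and 57.6, 58.2 and 54.3 CPM in the encorafenib libraries (1.94 ± 0.0718, adjusted p = 2.55e-18). The principal sheddase Adam10, which cuts Notch and E-cadherin, rose on day 1 in all lines, by 0.29, 0.38 and 0.96 in NaJa-D, -F and -G, and was not called on day 5. Its NaJa-G DMSO level was 324 ± 11.3 CPM (n = 3) on day 1 and 687 and 615 CPM in the DMSO libraries of day 5, near the treated level. Adam17, which releases tumour necrosis factor and EGF receptor ligands, was slightly lower in NaJa-D on both days (-0.44 and -0.24) and in NaJa-G on day 1 (-0.21). The last 2 of these calls were lost in 3 or more of the 6 fits that left out 1 library.

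Adam9 was lower on day 1 in all lines (-0.65, -0.48 and -0.50 in NaJa-D, -F and -G). On day 5 it was still lower in NaJa-D (-0.42 ± 0.0503, adjusted p = 8.62e-08) but higher in NaJa-G (0.33 ± 0.0579, adjusted p = 1.39e-05). It was the only one of the 61 genes called in opposite directions in 2 lines on the same day, and the 2 responses differed by 0.75 ± 0.0767 (adjusted p = 9.07e-09). Adam12 was lower on day 1 in all lines (-0.27 to -0.22) and higher on day 5 in NaJa-F (0.37) and NaJa-G (1.29 ± 0.0766). Adam19 (meltrin beta) fell in NaJa-F, from 8.02, 8.01 and 7.18 to 1.12 and 1.02 CPM on day 5 (-2.84 ± 0.178, adjusted p = 5.48e-13). In NaJa-G it changed by only -0.17 and -0.39, and the call of day 1 was lost in 4 of 6 fits that left out 1 library. Adam3 was called in NaJa-G on day 5 alone (0.79) and Adam15 in NaJa-G on day 1 alone (0.57 ± 0.0897). Adam22 was called lower in NaJa-G on day 5 (-1.37 ± 0.391), but its DMSO libraries there were apart, at 22.8 and 5.32 CPM, and without DMSO replicate 1 the change was -0.39 and no longer called. Adam11, like Adam22 a member without protease activity, was higher in NaJa-G on day 5 (0.87, or 0.34 without DMSO replicate 3). Of the exon length of Adam1a 99% overlaps another gene.

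In the plasminogen system, Plau (uPA) rose in all 6 comparisons. NaJa-G on day 5 had 7.59 and 9.26 CPM in the DMSO libraries and 47.3, 50.2 and 46.5 CPM in the encorafenib libraries (2.5 ± 0.110, adjusted p = 2.28e-17). NaJa-D on day 5 had 54.1, 59.6 and 51.2 CPM in the DMSO libraries and 112, 109 and 117 CPM in the encorafenib libraries (1.04 ± 0.0728, adjusted p = 2.19e-12). All treated libraries lay above the DMSO libraries of their line and day. NaJa-F gave 0.50 and 0.62 on days 1 and 5. Plat (tPA) rose on day 5 in NaJa-D (0.77 ± 0.0663, adjusted p = 1.51e-10) and NaJa-G (1.18 ± 0.0740, adjusted p = 6.15e-14) and was slightly lower in NaJa-F on day 1 (-0.26). The uPA receptor gene Plaur was called in 1 comparison, NaJa-G on day 1 (-0.41 ± 0.0925, adjusted p = 0.000251).

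The activator inhibitor Serpine2 was lower on day 1 and higher on day 5 in NaJa-D and NaJa-G. NaJa-G on day 1 had 5.26, 4.55 and 4.87 CPM in the DMSO libraries and 3.29, 2.92 and 3.12 CPM in the encorafenib libraries (-0.66 ± 0.149, adjusted p = 0.00027). NaJa-G on day 5 had 4.01 and 4.27 CPM in the DMSO libraries and 8.46, 8.36 and 7.24 CPM in the encorafenib libraries (0.94 ± 0.146, adjusted p = 2.7e-06). The treated libraries were thus below DMSO on day 1 and above it on day 5. NaJa-D gave the same order, -0.66 ± 0.0699 on day 1 and 0.46 ± 0.0692 on day 5. In NaJa-F only the day 5 rise was called (0.53 ± 0.0869). The DMSO level was not called different between the days in any line (-0.16, 0.03 and -0.24 in NaJa-D, -F and -G). The day 5 response exceeded the day 1 response by 1.11 ± 0.0984 (adjusted p = 4.42e-09) in NaJa-D and by 1.60 ± 0.209 (adjusted p = 4.52e-07) in NaJa-G.

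St14 and Spint1 rose most in NaJa-G, the line that had least of them in DMSO. St14 in NaJa-G on day 5 had 32.6 and 39.8 CPM in the DMSO libraries and 111, 129 and 113 CPM in the encorafenib libraries (1.70 ± 0.1, adjusted p = 1.52e-14). Its inhibitor Spint1 had 15.3 and 18.6 CPM in the DMSO libraries and 51.8, 58.9 and 52.9 CPM in the encorafenib libraries (1.68 ± 0.0893, adjusted p = 1.51e-15). For both genes the groups did not overlap on that day, and both genes were also higher on day 1 in NaJa-G (0.89 and 0.83). The treated NaJa-G levels stayed well below those of untreated NaJa-D, where St14 averaged 739 ± 57.9 and Spint1 318 ± 31.1 CPM (n = 3) on day 1. In NaJa-D St14 was not called (0.16 and 0.23) while Spint1 was, by 0.39 and 0.61. The NaJa-F day 1 call of Spint1 (0.23) was lost in each of 6 fits that left out 1 library and with edgeR. St14 was higher in NaJa-F on both days (0.38 and 0.58), and each of these calls was lost without 1 library (DMSO replicate 3 of day 1, 0.33, and encorafenib replicate 2 of day 5, 0.45). Spint2 was called only in NaJa-F on day 5 (0.45 ± 0.0959, or 0.22 and not called without encorafenib replicate 2).

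Most of the clade B serpins rose in every line. Of the 15 genes 14 were called higher and 1 lower in NaJa-G on day 1 (all genes, 35.3% and 28.7%), and 13 and 0 on day 5 (28.5% and 24.7%). NaJa-D had 12 and 0 on day 1 (23.7% and 21.2%) and 12 and 0 on day 5 (18.3% and 14.7%). NaJa-F had 12 and 1 on day 1 (17.5% and 12%) and 11 and 1 on day 5 (9.7% and 8.5%). Their median log2 fold change was 1.26 and 1.62 in NaJa-D on days 1 and 5, 1.19 and 0.90 for NaJa-F, and 3.24 and 3.22 for NaJa-G, where all genes had 0.04 and 0.01. Of the 15, 11 were higher in all 6 comparisons, and 7 of the 10 that had at least 2 DMSO libraries above 1 CPM. The other 5 genes reach 2 such libraries only through encorafenib. The counts and medians of all 15 are therefore a description only.

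Serpinb9b, a close relative of Serpinb9, had in each of the 6 comparisons 1 of the 5 largest called changes among those of the 61 genes that averaged at least 1 CPM and did not overlap between the groups. On day 1 in NaJa-G it had 11.9, 12.2 and 12.1 CPM in the DMSO libraries and 283, 259 and 285 CPM in the encorafenib libraries (4.51 ± 0.0737, adjusted p = 5.22e-27). On day 5 it had 15 and 14.9 CPM in the DMSO libraries and 450.4, 421 and 426 CPM in the encorafenib libraries (4.86 ± 0.0828, adjusted p = 1.16e-26). The replicates of each group lay close together and the groups were far apart. The change was 1.97 and 2.58 in NaJa-D on days 1 and 5, and 2.48 and 1.64 for NaJa-F. Serpinb9 itself, the intracellular inhibitor of granzyme B, had 9.62, 9.47 and 9.22 CPM in the DMSO libraries and 103, 97.8 and 109 CPM in the encorafenib libraries in NaJa-G on day 1 (3.45 ± 0.0893, adjusted p = 8.53e-23). In NaJa-D on day 1 Serpinb9 had 17.0, 14.6 and 15.8 CPM in the DMSO libraries and 49.4, 47.5 and 59.6 CPM in the encorafenib libraries (1.71 ± 0.0894, adjusted p = 4.02e-15). Serpinb1a, an inhibitor of neutrophil elastase and related proteases, had 0.929, 1.21 and 1.33 CPM in the DMSO libraries and 79.0, 78.9 and 83.2 CPM in the encorafenib libraries in NaJa-G on day 1 (6.14 ± 0.175, adjusted p = 6.76e-22). By log2 fold change Serpinb1a ranked 3 from the top of all 14107 genes in that comparison. Its DMSO level there was low, with 71, 90 and 80 counts, and on the same day it changed by 2.74 in NaJa-F and 1.19 in NaJa-D. Serpinb6b rose from 8.51 ± 1.1 to 94.3 ± 3.65 CPM in NaJa-G on day 1 (3.48 ± 0.0942).

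The clade B serpins lie in 2 clusters. Of the 15, 10 are on chromosome 13 between 32842092 and 34002794. The 9 genes from Serpinb1a to Serpinb9g follow each other with no other gene of the table between them, and 8 of them were higher in all 6 comparisons. Of these 9, Serpinb1b and Serpinb9c, d, e and g reach 2 libraries above 1 CPM only through encorafenib. Other clade B serpins, such as Serpinb1c, Serpinb6c and Serpinb9f, are not in the table. The unbroken run of rises is therefore a description only. The remaining gene of the 9, Serpinb1b, was higher in 5 and was not called in NaJa-F on day 5 (0.75 ± 0.223). The changes of the 9 genes ran from 1.98 to 6.14 in NaJa-G on day 1. The last gene, Serpinb6a, lies 421913 bases beyond Serpinb9g. It was called only in NaJa-G on day 1, by 0.20 ± 0.0658, and that call was lost in 5 of 6 fits that left out 1 library. On the other side of the cluster the neighbour Wrnip1 gave -0.16 in the same comparison. Nqo2, which lies within Serpinb6a, and Ripk1, which overlaps its end, gave 0.23 and 0.22 there, and Bphl, called higher in 5 of 6 comparisons, gave 1.60. Exons of Serpinb6a overlap those of 1110046J04Rik, Nqo2 and Ripk1 on the opposite strand over 29.3% of its exon length, so that reads of these genes may not be separable. These neighbours were looked at after the values of the serpins had been seen.

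**Figure D3:**
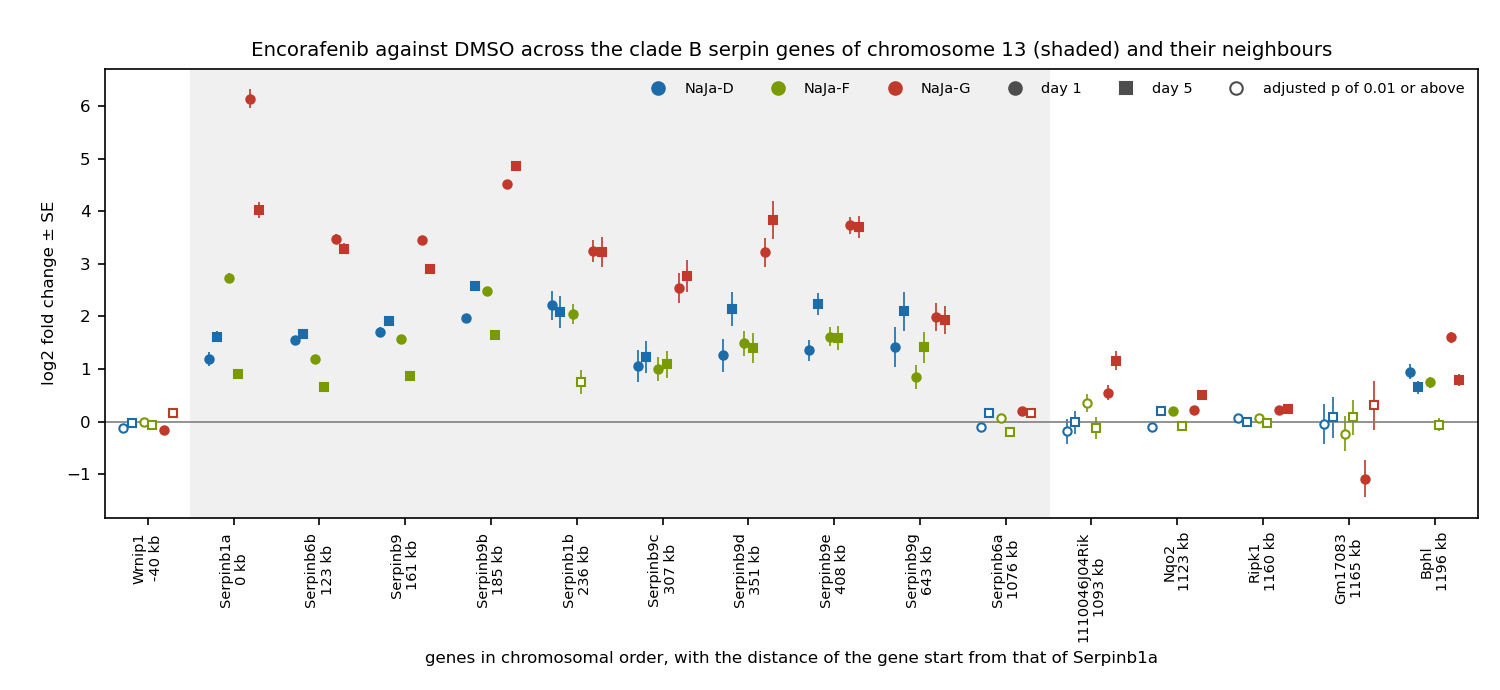
Log2 fold change (encorafenib against DMSO, ± SE) of the clade B serpin genes of chromosome 13 (shaded) and of the other genes of the table beside them, in chromosomal order with the distance from the start of Serpinb1a, coloured by line, with circles for day 1 and squares for day 5 and open symbols for adjusted p of 0.01 or above. The 9 genes from Serpinb1a to Serpinb9g are above 0 in every comparison, and Serpinb6a and most genes outside lie near 0. Of the 9, Serpinb1b and Serpinb9c, d, e and g reach 2 libraries above 1 CPM only through encorafenib.

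These serpins arose by gene duplication, and reads can be shared between copies. Of the 50-base words of the annotated transcripts, 54.8% of those of Serpinb9g, 30.8% of Serpinb9d, 28.4% of Serpinb9e and 18% of Serpinb9c also occur in another gene. These 4 genes had at most 6.59 CPM in a group, and their separate values are uncertain. For Serpinb1a the share was 2.81%, for Serpinb6b 2.92%, for Serpinb9 0.378% and for Serpinb9b 0.478%. Nearly all of the transcript sequence of these last 4 genes thus occurs in no other annotated gene.

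The other 5 genes, Serpinb5, Serpinb11, Serpinb7, Serpinb2 and Serpinb8, are on chromosome 1. Serpinb11 in NaJa-G on day 1 had 1.31, 1.27 and 1.16 CPM in the DMSO libraries and 16.2, 17.1 and 17.8 CPM in the encorafenib libraries (3.76 ± 0.189, adjusted p = 1.8e-16). Serpinb7 (megsin) in NaJa-G on day 5 had 3.61 and 3.78 CPM in the DMSO libraries and 51.4, 55.4 and 53.5 CPM in the encorafenib libraries (3.85 ± 0.137, adjusted p = 2.47e-19). Both were higher in all 6 comparisons. Serpinb8 was too, by 0.25 to 1.41, but its NaJa-F day 5 call was lost in 4 of 5 fits that left out 1 library. Serpinb5 (maspin) was called in NaJa-G alone (0.82 and 0.96 on days 1 and 5). Serpinb2 (PAI-2) went the other way and was lower in NaJa-F on both days (-0.94 and -0.66) and in NaJa-G on day 1 (-1.27 ± 0.106, adjusted p = 1.28e-11). A share of 10.4% of its 50-base words also occurs in Serpinb10.

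The 250 bases before the transcript starts that RefSeq lists for each gene were read from RefSeq (GRCm38.p6). They were searched on both strands for TGANTCA, where N is any base. This takes in TGACTCA and TGAGTCA, the site to which Fos and Jun dimers (AP-1) bind, and also TGAATCA and TGATTCA. A promoter was found for 42 of the 61 genes, 47 promoters in all. TGANTCA stood in 10 of these promoters, of 9 genes, and in 6.75% of all 32851 promoters. The genes were Adam19, Mmp10, Mmp13, Plaur and each of the 5 clade B serpins of chromosome 1. In Serpinb2, Serpinb5 and Serpinb11 each match was TGAATCA or TGATTCA and not the AP-1 site. None of the clade B serpins of chromosome 13 for which a promoter was found had a match. The promoters listed for Serpinb2 overlap and hold the same match. Of other letters, AGGAAG (PEA3) stood in 16 of 47 (all promoters, 29.5%) and GGAATG (TEAD) in 5 (12.6%), near their shares of all promoters. CACCTG (E-box) stood in 14 (17.2%), also above its share, and TGACGTCA (CRE) in 0 (1.55%). A match is a description of letters and says nothing of binding in these cells. Promoters of Mmp13 and Mmp10, which fell, and of Serpinb11, Serpinb7 and Serpinb8, which rose, are shown because genes with a match moved in opposite directions. The match is TGACTCA in Mmp13, TGAGTCA in Mmp10, Serpinb7 and Serpinb8, and TGATTCA and TGAATCA in Serpinb11. Each is the run of 250 bases just before a RefSeq transcript start, 5′ to 3′ on the strand of the gene (for Serpinb11 and Serpinb7 it lies inside the GENCODE gene, which starts further upstream), with the letters TGANTCA in capitals.
Mmp13, chr9:7272264-7272513, plus strand: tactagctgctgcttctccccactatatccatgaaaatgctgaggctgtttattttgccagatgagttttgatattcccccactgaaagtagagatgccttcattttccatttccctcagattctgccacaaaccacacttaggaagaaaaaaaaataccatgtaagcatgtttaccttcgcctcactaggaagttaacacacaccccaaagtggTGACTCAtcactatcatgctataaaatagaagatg
Mmp10, chr9:7502092-7502341, plus strand: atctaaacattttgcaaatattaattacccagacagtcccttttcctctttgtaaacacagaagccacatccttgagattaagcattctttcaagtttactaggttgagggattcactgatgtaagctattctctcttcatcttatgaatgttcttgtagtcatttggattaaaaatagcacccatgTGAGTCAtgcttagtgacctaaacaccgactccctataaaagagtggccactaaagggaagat
Serpinb11, chr1:107362064-107362313, plus strand: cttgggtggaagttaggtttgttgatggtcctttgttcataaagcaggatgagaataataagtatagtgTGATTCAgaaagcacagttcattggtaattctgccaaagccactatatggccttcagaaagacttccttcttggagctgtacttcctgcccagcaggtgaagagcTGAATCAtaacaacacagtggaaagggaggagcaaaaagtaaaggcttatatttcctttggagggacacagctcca
Serpinb7, chr1:107422439-107422688, plus strand: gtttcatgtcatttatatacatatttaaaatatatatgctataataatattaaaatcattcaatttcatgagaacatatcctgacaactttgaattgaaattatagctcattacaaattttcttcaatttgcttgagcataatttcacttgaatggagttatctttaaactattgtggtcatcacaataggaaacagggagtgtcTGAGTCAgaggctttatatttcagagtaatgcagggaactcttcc
Serpinb8, chr1:107589756-107590005, plus strand: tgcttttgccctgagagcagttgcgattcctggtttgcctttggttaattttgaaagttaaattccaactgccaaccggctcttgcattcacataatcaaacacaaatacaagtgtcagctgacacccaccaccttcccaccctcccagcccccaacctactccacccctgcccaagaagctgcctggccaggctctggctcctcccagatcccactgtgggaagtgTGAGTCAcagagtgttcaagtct
Counted back from the start, the first base of the match was at -35 in Mmp13, -63 in Mmp10, -181 and -76 in Serpinb11, -45 in Serpinb7 and -23 in Serpinb8.

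The remaining serpins changed mainly on day 5. Serpinh1 (HSP47, the collagen chaperone) and Serpinf1 (PEDF) were at low levels outside NaJa-G. Serpinh1 in NaJa-G on day 5 had 2.12 and 2.05 CPM in the DMSO libraries and 9.77, 9.82 and 9.83 CPM in the encorafenib libraries (2.23 ± 0.167, adjusted p = 2.98e-12), and the DMSO libraries of day 1 had 10.2, 9.17 and 9.61 CPM. Serpinf1 had 1.12 and 1.09 CPM in the DMSO libraries and 6.05, 6.30 and 5.53 CPM in the encorafenib libraries in NaJa-G on day 5 (2.42 ± 0.257, adjusted p = 3.78e-09), and the DMSO libraries of day 1 had 6.56, 5.29 and 4.76 CPM. Serpinh1 was also called in NaJa-F on day 5, at 6, 4 and 1 counts in the DMSO and 20 and 20 counts in the encorafenib libraries. In NaJa-G the treated level of both genes on day 5 was near the DMSO level of day 1, and the DMSO level of day 5 was below both. Serpini1 (neuroserpin) rose in NaJa-G on both days (0.71 and 1.70) and in NaJa-D on day 5 (0.50), a call lost in 4 of 6 fits that left out 1 library.

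The response was compared between lines with a test of the difference. NaJa-G responded more strongly than NaJa-D in 29 genes on day 1 (all genes, 20.2%) and in 31 on day 5 (14.1%), where more strongly means a higher log2 fold change. A lower one was called in 5 (16.2%) and 2 (7.82%). With library size alone as the scaling, the day 1 counts were 28 and 7 and the day 5 counts 30 and 2. Against NaJa-F, NaJa-G was higher in 33 (19.2%) and lower in 4 (14.3%) on day 1, and higher in 40 (16.2%) and lower in 1 (7.95%) on day 5. NaJa-F and NaJa-D were closer. On day 1 NaJa-F was higher in 4 (4.49%) and lower in 5 (4.3%), counts that were 3 and 8 with library size alone and 7 and 7 with DESeq2. On day 5 it was higher in 0 (4.08%) and lower in 13 (4.77%).

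The largest such differences were in serpins and ADAMTS genes. The response of Serpinb1a in NaJa-G exceeded that in NaJa-D by 4.96 ± 0.222 (adjusted p = 7.03e-16) on day 1. For Serpinb11 the difference was 3.57 ± 0.213 (adjusted p = 3.08e-13) on day 5, for Adamts5 2.84 ± 0.283 (adjusted p = 6.15e-09), and for Mmp15 2.08 ± 0.228 (adjusted p = 3.49e-08). For Adamts8, whose log2 fold change was lower in NaJa-G, it was -3.76 ± 0.388 (adjusted p = 1.12e-08). That value is a description only, because Adamts8 passed 1 CPM in only 1 encorafenib library. For Plau the difference was 1.46 ± 0.132 (adjusted p = 1.04e-09). Between NaJa-F and NaJa-D on day 5, Serpinb9 (-1.04 ± 0.119), Serpinb9b (-0.94 ± 0.107), Serpinb6b (-1.01 ± 0.113), Timp3 (-1.19 ± 0.132) and Plat (-1.01 ± 0.0986) were among the 13 genes with a weaker or more negative response in NaJa-F. The comparisons of 2 lines share the NaJa-G or NaJa-D libraries and are not independent of each other.

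Between the days, responses in NaJa-G were more often higher on day 5. Those in NaJa-F were more often lower, as were those of all genes in that line. The day 5 log2 fold change was above that of day 1 in 25 genes in NaJa-G (all genes, 15.5%) and below it in 8 (16.2%). In NaJa-F it was above in 4 (0.929%) and below in 12 (4.95%), and in NaJa-D above in 7 (2.76%) and below in 6 (4.54%). The NaJa-F genes with a lower day 5 response included Serpinb1a (-1.83 ± 0.136, adjusted p = 8.34e-11), Adamts15 (-1.64 ± 0.391), Timp3 (-1.18 ± 0.133) and Mmp28 (-1.68 ± 0.191). In NaJa-G the higher ones included Adamts5 (2.06 ± 0.298, adjusted p = 2.47e-06), Adamts1 (1.12 ± 0.115), Plat (1.31 ± 0.0996), Mmp10 (1.87 ± 0.188) and Adam12 (1.55 ± 0.0991), and the lower ones Serpinb1a (-2.11 ± 0.229), Mmp28 (-2.13 ± 0.149), Adam10 (-1.18 ± 0.106) and Mmp11 (-1.11 ± 0.142). Serpine2 had a called day 5 response above that of day 1 in all 3 lines, with 0.49 in NaJa-F. Mmp28 had one below it in all 3 lines, with -0.85 in NaJa-D.

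**Figure D4:**
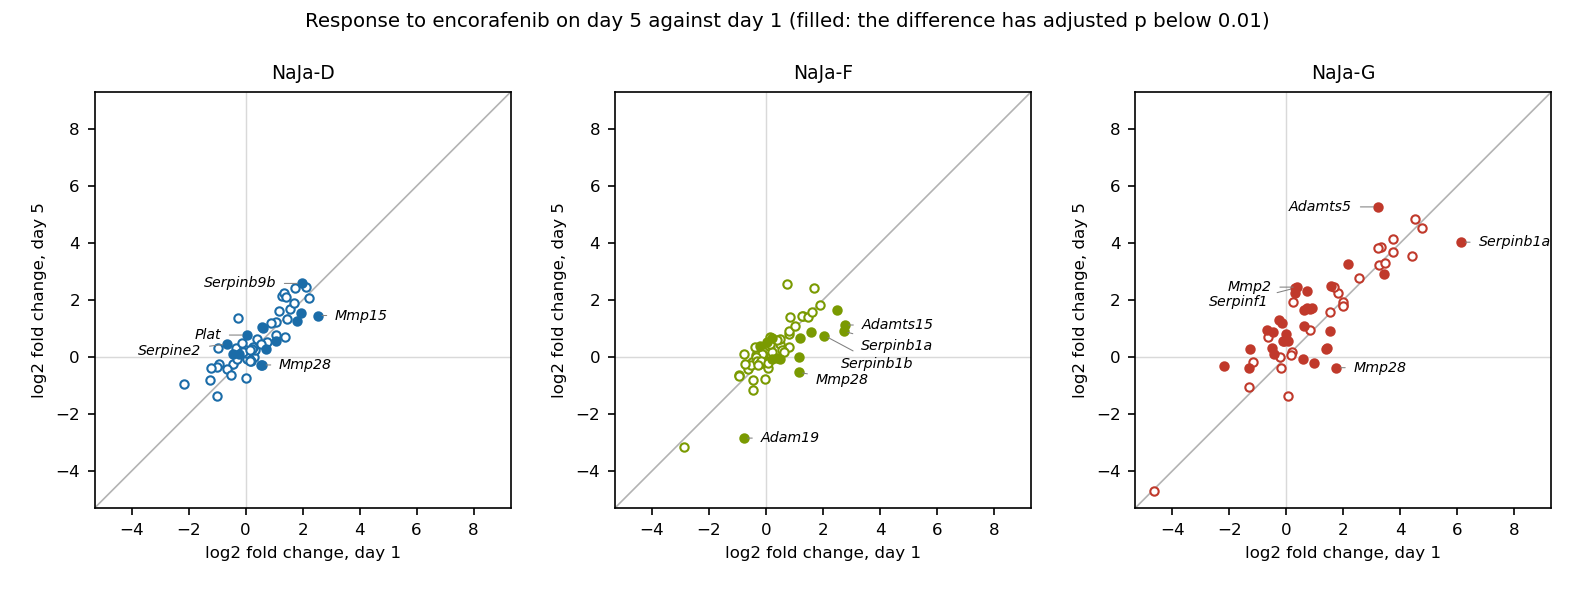
Each point is 1 gene (60 of the 61 are drawn), with the log2 fold change on day 1 (horizontal) and on day 5 (vertical) in a panel for each line, filled where the difference between the days has adjusted p below 0.01. The line marks equal responses, and the 5 drawn genes with the largest called differences are named in each panel, among them Mmp28 in all 3.

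The lines differed in these genes without any drug. With the DMSO libraries of both days averaged, NaJa-G had 22 genes higher than NaJa-D (all genes, 33.3%) and 27 lower (34.1%), or 22 and 26 with library size alone. NaJa-F had 25 higher than NaJa-D (32.6%) and 26 lower (29%), or 27 and 25 with library size alone. NaJa-G had 20 higher than NaJa-F (25.2%) and 30 lower (29.2%). Since Serpinf1, Serpinh1 and Mmp2 passed 1 CPM in NaJa-G libraries alone, the counts that hold them are a description only. The summed level of the 6 fibroblast or mesenchymal markers in the table, chiefly Vim, was 87.4 to 129.9 CPM in the NaJa-D DMSO libraries and 2106 to 3003 CPM in the NaJa-G ones. It moved with the lines, and its part in these differences was not tested.

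St14 and Spint1 were lowest in NaJa-G. St14 averaged 739 ± 57.9, 326 ± 23.0 and 53.7 ± 4.72 CPM in NaJa-D, -F and -G (SD, n = 3 each, DMSO day 1), and the log2 fold change of NaJa-G against NaJa-D was -4.0 ± 0.0690 (adjusted p = 1.31e-27). Spint1 followed the same order, with 318 ± 31.1, 162 ± 3.54 and 23.1 ± 0.308 CPM (-3.94 ± 0.0585). Serpinb11 had 142, 174 and 172 CPM in NaJa-D and 1.31, 1.27 and 1.16 CPM in NaJa-G on day 1, the largest difference of the 61 genes in that direction (-6.73 ± 0.135, adjusted p = 3.45e-26). Mmp15 (-4.45 ± 0.144), Serpine2 (-4.33 ± 0.0849), Serpinb7 (-4.16 ± 0.0971), Serpinb5 (-3.42 ± 0.0756), Adamts1 (-3.35 ± 0.0573) and Plau (-2.68 ± 0.0694) were also lower in NaJa-G. NaJa-F lay between the other lines for each of these genes. Several of them are those that rose most with encorafenib in NaJa-G, but both changes use the NaJa-G DMSO libraries.

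Among genes that averaged at least 1 CPM in the higher line, Adam19, Adamts2, Serpinf1 and Adamts8 had the highest log2 fold changes of NaJa-G against NaJa-D. Adam19 had 84.3, 85.5 and 84.5 CPM in the NaJa-G, 3.31, 3.00 and 2.98 CPM in the NaJa-F and 0.126, 0.0704 and 0.0728 CPM in the NaJa-D DMSO libraries of day 1, and the NaJa-D values stand for only 6, 3 and 3 counts (NaJa-G against NaJa-D, 9.88 ± 0.231, adjusted p = 1.35e-24). Adamts2 had 562, 566 and 500 counts in NaJa-G and 3, 2 and 2 in NaJa-D on day 1, so its fold change is poorly fixed. Mmp2 had 78, 76 and 58 and 0, 0 and 1 counts. Serpinf1 had 501, 395 and 286 counts in NaJa-G and 10, 7 and 5 in NaJa-D on day 1. Serpinh1 was higher in NaJa-G than in NaJa-F by 6.19 ± 0.315 (adjusted p = 2.16e-16), with only 3, 3 and 6 counts in NaJa-F on day 1. Serpinf1, Serpinh1 and Mmp2 passed 1 CPM in NaJa-G libraries alone, so that their differences between lines are a description only. Adamts8 (3.81 ± 0.133, adjusted p = 1.78e-20) was at 23.1 ± 2.16 CPM in NaJa-G, 2.37 ± 0.502 in NaJa-F and 2.19 ± 0.119 in NaJa-D (n = 3 each, day 1). Timp1 was also higher in NaJa-G (1.47 ± 0.0694). NaJa-F was not simply between the other lines, since Serpinb6b (1.36 ± 0.0559 against NaJa-D), Serpinb9b (1.30 ± 0.0594) and Adam12 (1.20 ± 0.0370) were highest in it and Adam3 (-3.04 ± 0.139) was lowest.

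**Figure D5:**
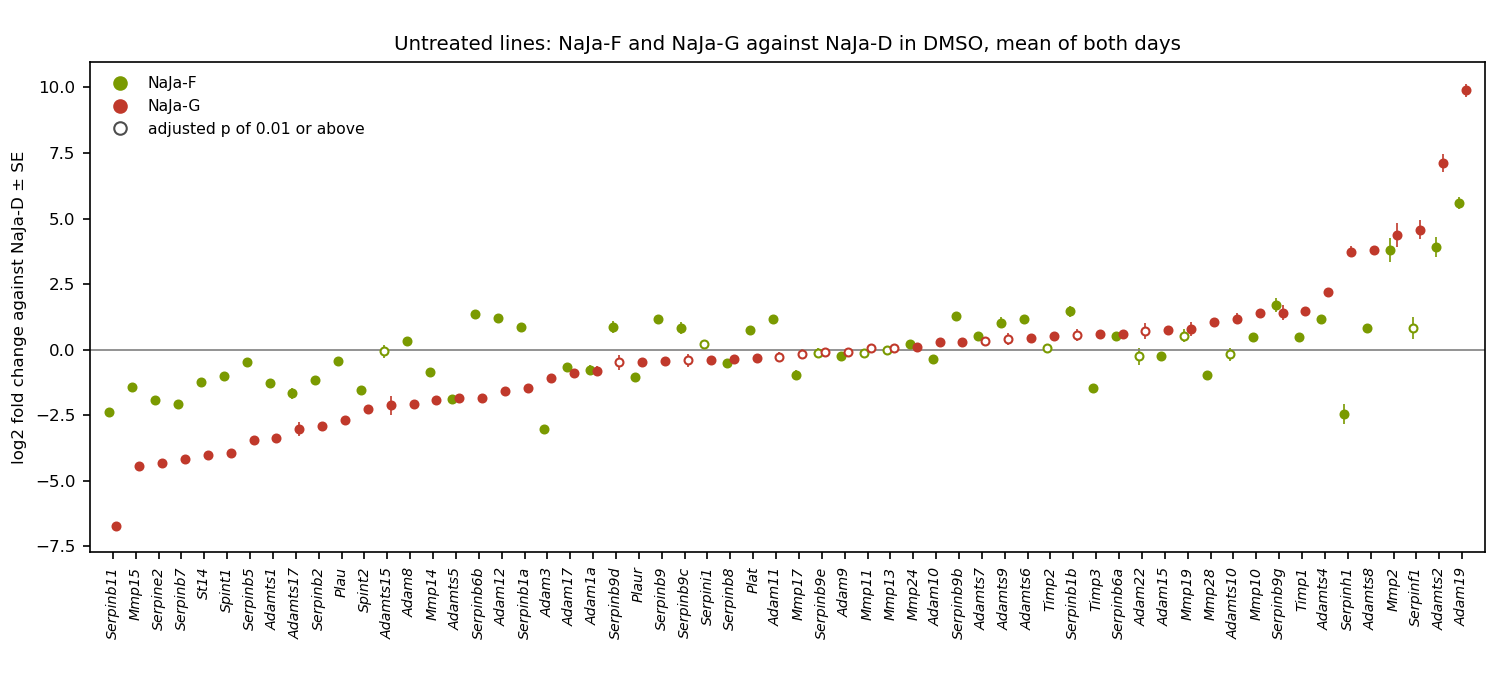
Log2 fold change ± SE of 60 of the 61 genes in NaJa-F (green) and NaJa-G (red) against NaJa-D in DMSO, both days averaged, ordered by NaJa-G, with open symbols for adjusted p of 0.01 or above. Serpinb11, Mmp15, Serpine2, Serpinb7, St14 and Spint1 are among the lowest and Adam19 and Adamts2 the highest in NaJa-G, where the values of Mmp2 and Adamts2 rest on a few counts in NaJa-D.

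DMSO cultures also changed between day 1 and day 5. In NaJa-D 7 genes were higher on day 5 (all genes, 13.7%) and 12 lower (15.3%), or 12 and 10 with library size alone. In NaJa-F 6 were higher (9.73%) and 9 lower (7.01%), or 11 and 7. In NaJa-G 13 were higher (17.2%) and 17 lower (16.8%), or 15 and 17. Timp1, Serpinb2, Plau, Adam12 and Serpinb6a were lower in all 3 lines and Mmp28 and Mmp11 higher. Timp1 changed by -1.31, -0.84 and -0.99 in NaJa-D, -F and -G, and Serpinb2 by -1.20, -0.87 and -1.77. A comparison of day 5 is thus made against a DMSO level that had itself moved.

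Of 36 further genes of proteolysis and its control, 24 were in the table. Higher and lower calls among them numbered 6 and 5 in NaJa-D on day 1 (all genes, 23.7% and 21.2%) and 9 and 4 on day 5 (18.3% and 14.7%). They were 9 and 2 in NaJa-F on day 1 (17.5% and 12%), 7 and 4 on day 5 (9.7% and 8.5%), 13 and 6 in NaJa-G on day 1 (35.3% and 28.7%) and 15 and 5 on day 5 (28.5% and 24.7%), so that the counts of NaJa-D on day 1 were near the shares of all genes. The lysosomal protease gene Ctsl was lower in all 6 comparisons (-1.1 to -0.28). Furin, whose product activates membrane MMPs and ADAMs, was lower in 5 (-0.67 in NaJa-G on day 5). Tmprss2, a membrane serine protease, was higher in all 6, by 2.92 in NaJa-G on day 1 and 0.26 in NaJa-D on day 5. Adamtsl4 and Adamtsl5, ADAMTS-like proteins without a protease domain, were also higher in all 6. Reck, a membrane-anchored MMP inhibitor, was called in NaJa-G alone (1.07 and 0.65).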

How the data were processed

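Per the labels and the study's methods, the authors trimmed reads with Trimmomatic 0.39, aligned them with STAR 2.5.2b to GRCm38 (mm10) and deposited raw counts per gene. The counter, its annotation and its use of strand are not given in the sources used here. Symbols, exon lengths and positions came from GENCODE M21 (GRCm38), promoters from RefSeq.

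Counts were scaled by TMM and fitted with limma-voom (limma 3.58.1, edgeR 4.0.16, R 4.3.3), as a mean for each of 12 groups with contrasts, over all 14107 genes with a summed count above 2. Differences between responses were contrasts of the same fit. Tests are two-sided. Alternatives were edgeR quasi-likelihood, DESeq2 1.42.0, other scalings, filters, thresholds and libraries. Where a left-out library leaves 1 in a group, that library is assumed to vary like the others. The code was tested on simulated data.

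A result for 1 of the 61 genes is not reported here, and that gene enters the counts only. The genes, lists and tests were chosen with earlier results of these data known. Genes are named if on a fixed list of core genes, if among the 5 largest called changes of an encorafenib comparison with no overlap and at least 1 CPM, if called alike in all 6 or oppositely in 2 lines, or if among the 4 highest or lowest in a line comparison. Others are named to account for every member, and the neighbours on chromosomes 9 and 13 were chosen after values were seen.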

Additional observations from a re-analysis of the deposited data

Results flagged for a closer look

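The following differences between groups passed a test of the difference itself (limma-voom contrasts, adjusted p below 0.01). The number of the 61 genes whose response to encorafenib differed between NaJa-F and NaJa-D was 9 on day 1 (all genes, 4.49% and 4.3% higher and lower) and 13 on day 5 (4.08% and 4.77%). Between NaJa-G and NaJa-D it was 34 on day 1 (20.2% and 16.2%) and 33 on day 5 (14.1% and 7.82%), and for NaJa-G against NaJa-F it was 37 on day 1 (19.2% and 14.3%) and 41 on day 5 (16.2% and 7.95%). The responses of both days differed in 33 genes for NaJa-G (15.5% and 16.2%), 16 for NaJa-F (0.929% and 4.95%) and 13 for NaJa-D (2.76% and 4.54%).

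Only 1 gene was called in opposite directions in 2 lines on the same day. Adam9 was higher with encorafenib in NaJa-G and lower in NaJa-D on day 5, a difference of 0.75 on the log2 scale. Other genes were called in opposite directions on the 2 days of a line. Serpine2 was lower on day 1 and higher on day 5, with a difference (day 5 minus day 1) of 1.11 in NaJa-D and 1.60 in NaJa-G. Adam12 was lower on day 1 and higher on day 5 in NaJa-F and NaJa-G, by 0.59 and 1.55. Adam9 did so in NaJa-G, by 0.84. Mmp28 was higher on day 1 and lower on day 5 in NaJa-F and NaJa-G, by -1.68 and -2.13. For Adam12 and Mmp28 the DMSO level itself differed between the days in the same lines, and its part in these differences was not tested.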

How the results depend on the processing

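Of 381 gene results called in the encorafenib and line comparisons none changed sign under the alternatives run on them, 4 lost the call with DESeq2, 4 with edgeR, 3 with RLE scaling, 9 with library size alone, 25 with a fit of the compared groups alone, 0 with filterByExpr or no filter, and 42 without at least 1 library. When a change of 1 or more on the log2 scale was also required, the calls among the 61 genes fell to 22 and 17 (NaJa-D, days 1 and 5), 16 and 13 (NaJa-F) and 31 (NaJa-G, day 1). They fell to 28 between NaJa-F and NaJa-D and 32 between NaJa-G and NaJa-D, and to 9, 2 and 11 for DMSO day 5 against day 1 in NaJa-D, -F and -G. Response differences fell to 2 and 5 (NaJa-F minus NaJa-D, days 1 and 5), 18 (NaJa-G minus NaJa-D, day 1), 22 (NaJa-G minus NaJa-F, day 1) and, between days, 3, 6 and 19 in NaJa-D, -F and -G. With the compared groups alone they were 12 for DMSO time in NaJa-G, 4 for NaJa-F minus NaJa-D on day 1 and 4 between days in NaJa-D. At adjusted p below 0.05 they were 17 and 20 for NaJa-F minus NaJa-D on days 1 and 5 and 23 between days in NaJa-D, and DESeq2 gave 14 for NaJa-F minus NaJa-D on day 1. Without 1 library, that last count ran from 6 to 16 (16 without the third NaJa-D encorafenib replicate of day 1), the count between days in NaJa-D from 10 to 20 (20 without the same library) and that in NaJa-F from 10 to 14 (10 without NaJa-F encorafenib day 5 replicate 2).

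Library size alone moved the median of all genes from 0.04 to 0.11 (NaJa-D, day 1), 0.02 to 0.14 and 0.01 to 0.13 (NaJa-F and NaJa-G against NaJa-D) and 0.01 to 0.18 (DMSO time, NaJa-D). Same-numbered replicates did not deviate together (3 of 16 pairs above 0.1, range -0.156 to 0.215). A replicate block gave 38, 34, 37, 29, 47 and 48 calls in the encorafenib comparisons of NaJa-D, -F and -G (days 1 and 5 each), and 3 of 381 gene results lost the call. The 2 smaller groups hold 2 libraries, and genes near 1 CPM in them are the least precise.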
